A study of Mus musculus with 3 samples.

Results

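The genes described here are 10 members of the epidermal growth factor (EGF) system, read from RNA-seq of scratched primary fibroblasts of the mouse. They were chosen by name, from family membership, and comprise 7 ligand genes (Hbegf, Areg, Ereg, Tgfa, Btc, Epgn and Nrg1) and 3 receptor genes (Egfr, Erbb2 and Erbb3). Each matched 1 of the 43472 rows of the deposited table. The fibroblasts came from tail tips of C57BL/6 mice, were scratched in culture and received the soluble micrograft (MG), a cell-depleted extract of minced mouse skin, together with PD0325901 (1 μM) for 5 h. PD0325901 inhibits the kinase MEK, which activates ERK. This MG + PD0325901 condition has 3 replicates, numbered 1, 2 and 3, and the sources used here do not say whether animals were pooled. Cells without the MG or without the inhibitor were not analysed here, so neither effect was computed. What can be compared is the level of 1 gene with another and 1 replicate with another.

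EGF family ligands are made as membrane proteins whose outer part is cut off by ADAM proteases, and the released factor binds ErbB receptors on the same or neighbouring cells. The receptors pair up, phosphorylate each other and recruit adaptors that switch on the Ras, MEK and ERK cascade. EGFR binds EGF, amphiregulin, epiregulin, TGF-alpha, betacellulin, epigen and HB-EGF, ERBB3 binds neuregulins and has little kinase activity of its own, and ERBB2 has no known ligand and acts as a partner. In skin wounds these factors drive migration and growth of keratinocytes and fibroblasts.

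Values are normalized counts, that is, reads on a gene divided by 1 size factor per library. The libraries held 22540518, 27037783 and 17244505 reads on genes in replicates 1, 2 and 3. A count of 0 allows up to 3 reads, or 2.61, 2.11 and 3.56 normalized counts, and such limits cover counting error alone. A gene is called detected where each library had at least 10 normalized counts, which held for 12204 genes. Of these, 7.24% stood more than 2-fold from both other libraries in replicate 2, against 2.08% in replicate 1 and 2.02% in replicate 3. Replicate 2 thus stands apart from the others, and the spread between libraries of the detected genes among the 10 is given without it as well. Counts over the other gene lists are given with all 3 libraries only. All 8 fibroblast markers examined were detected, whereas 1 of 8 keratinocyte markers was (Krt10), and Krt1, Krt15 and Dsg3 had no reads. Some markers stood far apart in replicate 2, where most ligands were lowest. Of the fibroblast genes, Thy1 was at 2031, 15760 and 1652 and Lum at 5073, 289 and 1164 normalized counts. Des, a muscle gene, was at 212, 1208 and 77.0, and Tek, an endothelial gene, at 6.95, 185 and 2.37. Other markers of these lists went other ways. The endothelial genes Pecam1, Kdr and Egfl7 were highest in replicate 1, and Cdh5 had no reads in replicate 2. Of the muscle genes, Acta1 was also highest in replicate 2 (2429, 7286 and 5586), but Myod1, Myog and Ckm had no reads there. The part of these marker differences in the ligand values of replicate 2 was not tested.

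The ligand transcripts of these fibroblasts were almost all Ereg and Hbegf. Ereg, which encodes epiregulin, stood at 8436 normalized counts in replicate 1, 5436 in replicate 2 and 12345 in replicate 3, averaging 8739 ± 3464 (SD, n = 3). It was higher in mean than 97.3% of detected genes. Replicate 3 was highest and replicate 2 lowest, 2.27-fold apart. Hbegf encodes heparin-binding EGF-like growth factor and lies on chromosome 18 from 36504927 to 36515805 of GRCm38, on the minus strand. It stood at 5986, 2509 and 4602 normalized counts in the same order, averaging 4366 ± 1751 (SD, n = 3). Here replicate 1 was highest and replicate 2 lowest, 2.39-fold apart. At the lowest read count, counting error was 1.14% for Ereg and 1.68% for Hbegf, so these differences between libraries exceeded counting error by far.

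Longer transcripts collect more reads, so genes were compared with each other after division by the length of their annotated exons. On this scale Ereg had 2117 ± 839 and Hbegf 903 ± 362 normalized counts per kb (SD, n = 3). Ereg made up 61.0%, 70.1% and 73.6% of the summed per-kb level of the 7 ligands in replicates 1, 2 and 3, and Hbegf 36.9%, 27.6% and 23.4%. The remaining 5 ligands together held 2.08%, 2.29% and 2.91%. Ereg was above Hbegf in each of the 3 libraries, by 1.65-fold, 2.54-fold and 3.14-fold. This order depended on the length used. Hbegf has annotated exons of 4834 bp in all, but its longest transcript has 2890 bp. Divided by the longest transcript, Hbegf reached 2071 per kb in replicate 1, against 2044 for Ereg, and Ereg was higher in 2 of 3 libraries.

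**Figure D1:**
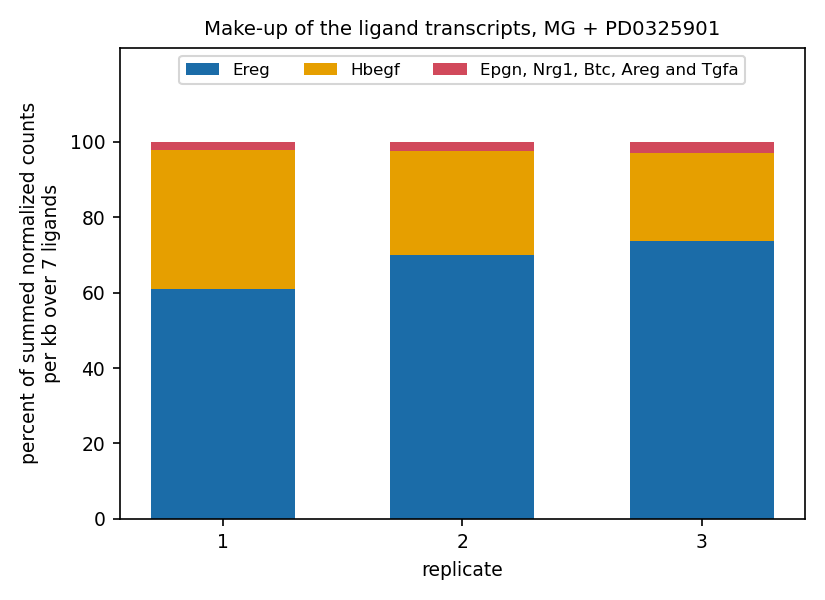
Share of each ligand gene in the summed normalized counts per kb of exon over the 7 ligands (vertical axis, percent), in replicates 1, 2 and 3 of MG + PD0325901. Ereg fills between 61.0% and 73.6% of each bar, Hbegf most of the rest, and the other ligands at most 2.91%.

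The other 5 ligands were between weakly detected and not detected. Epgn, which encodes epigen, had 63.4, 45.8 and 128 normalized counts in replicates 1, 2 and 3, from 73, 65 and 108 reads. Nrg1, a neuregulin gene (chromosome 8, 31814551 to 32884029, minus strand), had 149, 65.5 and 123 normalized counts, from 172, 93 and 104 reads. Replicate 2 was lowest for both, while Epgn was highest in replicate 3 and Nrg1 in replicate 1. Their means were 79.1 ± 43.3 for Epgn and 113 ± 42.9 for Nrg1 (SD, n = 3). Btc, which encodes betacellulin, had 33.0, 38.8 and 67.6 normalized counts. For Btc replicate 1 was the lowest library, and its 95% Poisson interval of 23.4 to 45.3 lay below that of replicate 3, 51.2 to 87.5. Tgfa, which encodes TGF-alpha (chromosome 6, 86195223 to 86275719, plus strand), had 19.1, 17.6 and 39.1 normalized counts, from 22, 25 and 33 reads. Its interval in replicate 3 (26.9 to 54.9) lay above that in replicate 2 (11.4 to 26.0) and overlapped the end of that in replicate 1 (12.0 to 28.9).

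Areg was the ligand with the fewest normalized counts. It encodes amphiregulin and had 12.2, 0 and 17.8 normalized counts in replicates 1, 2 and 3, from 14, 0 and 15 reads. Replicate 2 was the deepest library and yet held no Areg read, which allows at most 2.11 normalized counts there. The values of replicates 1 and 3 were 5.75-fold and 8.41-fold that limit of 3 reads. These folds leave out the counting error of the 14 and 15 reads, so the true folds can be smaller. The Poisson intervals were 6.65 to 20.4 in replicate 1 and 9.95 to 29.3 in replicate 3, above the limit of 2.11 in replicate 2. The mean of the 3 values was 9.98 ± 9.09 normalized counts (SD, n = 3), under the 10 that detection required of each library.

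Areg lies beside the most abundant ligand gene. Epgn, Ereg, Areg and Btc occur in this order on mouse chromosome 5, within 375531 bp of GRCm38. Ereg (91074622 to 91093646, plus strand) ends 45952 bp before Areg (91139599 to 91148432, plus strand) begins. Epgn (91027464 to 91035215, plus strand) and Btc (91357261 to 91402994, minus strand) flank them. All 4 neighbours were highest in replicate 3, and Ereg, Areg and Epgn were lowest in replicate 2. Being highest in replicate 3 was not particular to the cluster. Tgfa, Egfr, Erbb2 and Erbb3, on other chromosomes, were highest there too, as were 27.9% of all detected genes. Replicate 2 was lowest for 37.3% of all detected genes. Ereg had 2117 ± 839 and Epgn 43.8 ± 24.0 normalized counts per kb (SD, n = 3). Btc had 10.3 ± 4.10 and Areg 8.21 ± 7.48 (SD, n = 3). Ereg was thus far above its neighbours, while the ranges of Btc and Areg over the 3 libraries overlapped. In replicates 1 and 3, the Ereg level per kb was 204-fold that of Areg in each, from 14 and 15 Areg reads. In replicate 2 the Ereg level per kb was 757-fold that of 3 Areg reads, the limit there.

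The bases just upstream of the starts of the 3 cluster genes found in the promoter table are shown, since these neighbours share a chromosomal region. They are RefSeq promoter sequences of GRCm38.p6, read 5′ to 3′ on the strand of the gene and ending before the first transcript base of RefSeq or GENCODE, whichever is further upstream. Capitals mark matches to 4 motifs searched on both strands, the AP-1 site, the cAMP response element (CRE), the TATA box and the GC box. No match overlapped another. The sequences are Areg at chr5:91139349-91139598 (plus strand), Epgn at chr5:91027267-91027463 (plus strand) and Btc at chr5:91402995-91403244 (minus strand).
Areg: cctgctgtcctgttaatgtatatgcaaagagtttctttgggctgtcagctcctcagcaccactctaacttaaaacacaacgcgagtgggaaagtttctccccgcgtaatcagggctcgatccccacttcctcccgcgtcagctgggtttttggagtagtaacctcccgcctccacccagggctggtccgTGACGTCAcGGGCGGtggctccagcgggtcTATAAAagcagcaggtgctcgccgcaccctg
Epgn: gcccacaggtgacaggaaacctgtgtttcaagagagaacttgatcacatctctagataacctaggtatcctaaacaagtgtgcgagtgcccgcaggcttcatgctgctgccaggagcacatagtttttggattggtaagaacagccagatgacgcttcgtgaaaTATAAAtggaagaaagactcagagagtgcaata
Btc: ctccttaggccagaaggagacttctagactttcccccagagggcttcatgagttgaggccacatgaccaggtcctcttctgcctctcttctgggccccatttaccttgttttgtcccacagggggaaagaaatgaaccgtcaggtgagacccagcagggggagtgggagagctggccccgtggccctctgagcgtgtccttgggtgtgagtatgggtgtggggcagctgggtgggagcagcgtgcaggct

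The Areg window held a CRE whose first base is at position -61 from the RefSeq start, a GC box at -52 and a TATA box at -31. The Epgn window held a TATA box at -86 from its RefSeq start, which lies 53 bp downstream of the GENCODE start, and the Btc window held no match to these letters. Promoter sequences were matched and searched for 6 of the 10 genes (Areg, Tgfa, Btc, Epgn, Egfr and Erbb2). Hbegf was left out of this search, and Ereg, Nrg1 and Erbb3 were not found in the promoter table. Of the other matched genes, Tgfa held 2 GC boxes, Egfr held 1, and Erbb2 held no match. Of all 32851 promoters in the table, 1.55% held the CRE letters, TGACGTCA, in the 250 bases upstream of the start. The TATA box letters, TATAAA, were in 12.4% of them. The GC box letters, GGGCGG, were in 32.7%. The AP-1 site was searched as TGACTCA, which 4.46% of the promoters held and none of the 6 windows did. A match is a run of letters, and binding was not measured here.

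Among the receptors, Egfr and Erbb2 were both well detected and close in level, and Erbb3 was near the limit of detection. Egfr (chromosome 11, 16752203 to 16918158, plus strand) stood at 1758 normalized counts in replicate 1, 1361 in replicate 2 and 1796 in replicate 3, averaging 1638 ± 241 (SD, n = 3). Its libraries spanned 1.32-fold. Erbb2 (chromosome 11, 98412470 to 98437716, plus strand) stood at 569, 725 and 743, averaging 679 ± 95.9 normalized counts (SD, n = 3), with a range of 1.31-fold. Replicate 2 was lowest for Egfr, and replicate 1 was lowest for Erbb2. Per kb of exon, Egfr had 145 ± 21.3 and Erbb2 130 ± 18.4 normalized counts (SD, n = 3). Egfr was 1.42-fold above Erbb2 in replicate 1, 0.864-fold in replicate 2 and 1.11-fold in replicate 3, so their order changed between libraries.

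Erbb3 (chromosome 10, 128567523 to 128589652, minus strand) had 6.08, 0.705 and 14.2 normalized counts in replicates 1, 2 and 3, from 7, 1 and 12 reads. Replicate 3 was 20.2-fold above replicate 2, with a 95% counting interval of 2.99 to 863. Replicate 1 was 8.63-fold above replicate 2, with an interval of 1.11 to 389. ErbB3 is known from Schwann cells, melanocytes and keratinocytes, so markers of these cells were read beside it. Of the Schwann cell markers, Mbp stood at 99.0 normalized counts in replicate 1, 50.03 in replicate 2 and 22.5 in replicate 3, and Sox10 had 0, 0.705 and 2.37. Of the 6 melanocyte markers 1 was detected, and they summed to 681, 696 and 377, nearly all from Mitf, and Mlana had no reads. The 8 keratinocyte markers summed to 90.3, 52.1 and 49.8. Neither sum nor Mbp was highest in replicate 3, where Erbb3 was highest, but markers at the low level of Erbb3 were. The melanocyte gene Pmel stood at 8.68, 3.52 and 19.0 normalized counts, with the same order of libraries as Erbb3. Trp63, a basal keratinocyte gene, stood at 6.08, 3.52 and 10.7, also in that order. Krt14 and Foxd3 had reads in replicate 3 and in no other library, and with 2.37 each, like Sox10, they were below what a count of 0 allows there. The part of such cells in the Erbb3 values was not tested. In bulk RNA, fewer cells of a type and less RNA per cell cannot be told apart.

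Placed in 1 order by level per kb, the genes ran Ereg, Hbegf, Egfr, Erbb2, Epgn, Nrg1, Btc, Areg, Tgfa and Erbb3. The order was the same with the longest transcript as the length. Of the 9 pairs of neighbours in this order, 5 had ranges over the 3 libraries that did not overlap, namely Ereg above Hbegf, Hbegf above Egfr, Erbb2 above Epgn, Epgn above Nrg1 and Tgfa above Erbb3. For each of these the two-sided exact permutation test gave p = 0.1, the smallest that 3 against 3 values allow, and 0.18 after Benjamini-Hochberg adjustment over the 9 pairs, so no pair could pass 0.05. Values of 1 library are not independent, and paired by library these 5 pairs gave an exact permutation p = 0.25, the smallest that 3 libraries allow. The largest step was between Hbegf and Egfr, at 6.24-fold. Egfr and Erbb2 (exact permutation p = 0.5), Nrg1 and Btc (p = 1), Btc and Areg (p = 0.8) and Areg and Tgfa (p = 0.4) overlapped. With the longest transcript as length, 3 pairs did not overlap, and the pairs Ereg with Hbegf and Epgn with Nrg1 then overlapped.

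**Figure D2:**
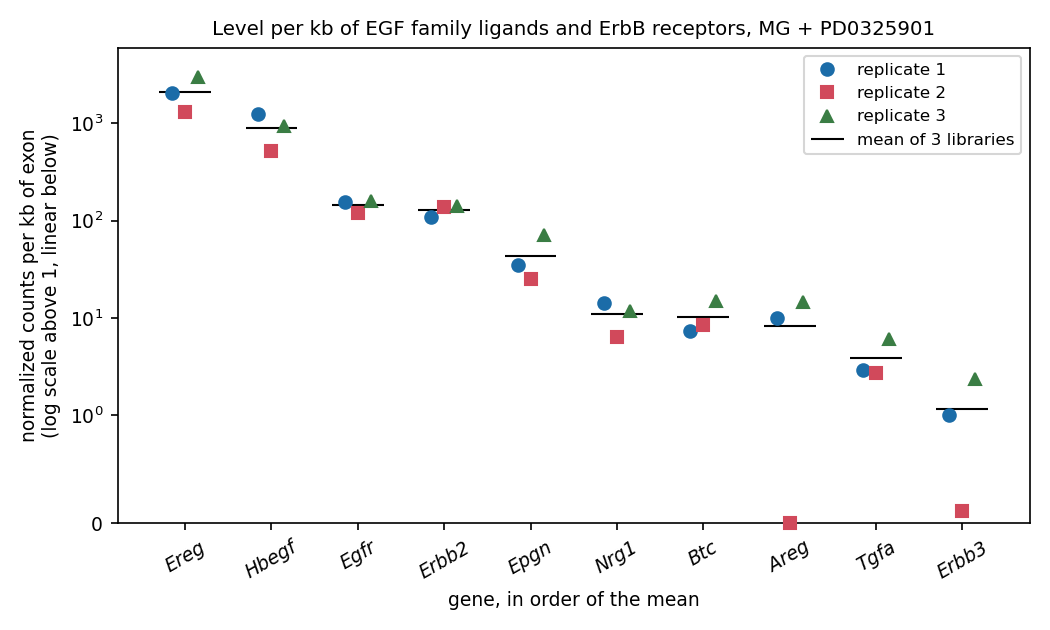
Normalized counts per kb of exon (vertical axis, log scale above 1 and linear below) of the 10 genes in replicates 1, 2 and 3 of MG + PD0325901, with the mean as a black line. Ereg, with a mean of 2117, and Hbegf, with 903, lie above both main receptors, Egfr with 145 and Erbb2 with 130, and the replicate 2 values of Areg (0) and Erbb3 lie near the axis.

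As a sum, ligand transcripts outnumbered receptor transcripts per kb in each library, by 12.6-fold, 7.24-fold and 13.4-fold in replicates 1, 2 and 3. The ligand sum was 3352, 1879 and 4061 normalized counts per kb. The receptor sum was 265, 259 and 304 per kb. The ligand sum thus differed more between libraries than the receptor sum, and it was lowest in replicate 2.

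The ligand genes varied between replicates more than most genes, while Egfr and Erbb2 did not. Of the 10 genes, 8 were detected, all but Areg and Erbb3. In each of the 6 detected ligands the libraries spanned more than 2-fold on the log2(normalized count + 1) scale, and neither of the 2 detected receptors did. Together these are 6 of 8 genes, against 21.6% of all 12204 detected genes. Spread rises at low levels, where counting error is larger. Among detected genes with a mean of at least 1000 normalized counts the share was 11.6%, and Ereg and Hbegf were over the limit while Egfr was not. Among those with a mean under 200 it was 39.0%, and Epgn, Nrg1, Btc and Tgfa were over the limit. The SD of log2(normalized count + 1) was 0.59 for Ereg, 0.64 for Hbegf, 0.61 for Tgfa, 0.53 for Btc, 0.62 for Nrg1 and 0.75 for Epgn. It was 0.22 for Egfr and 0.21 for Erbb2. The median was 0.61 over the detected ligands and 0.60 over the 8 genes, against 0.30 over all detected genes, 0.43 over those with a mean under 200, as 4 of the 6 ligands have, and 0.25 over those with a mean of at least 1000.

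**Figure D3:**
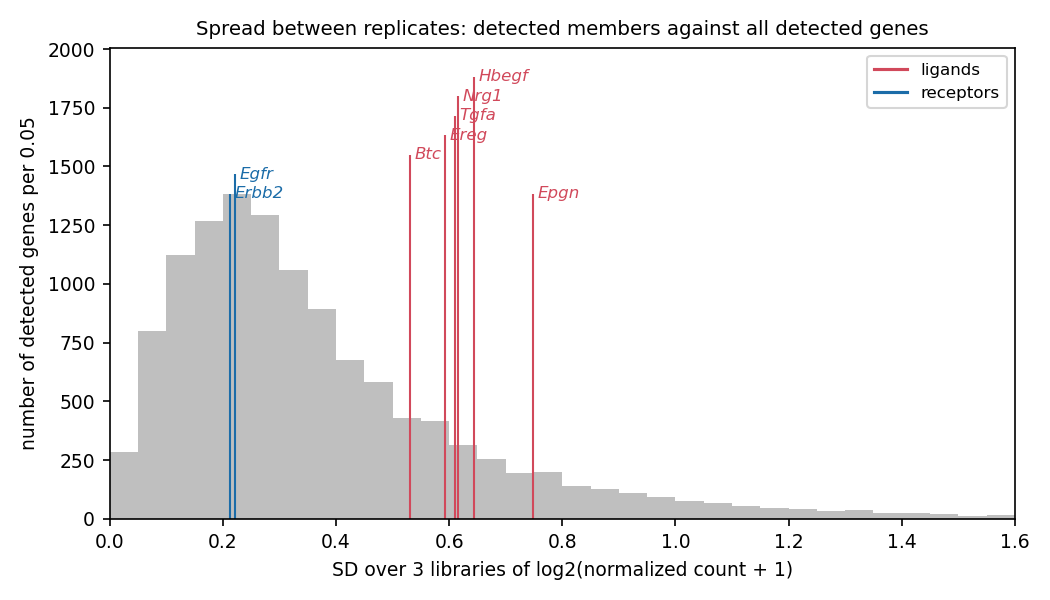
Number of detected genes (vertical axis) by the SD over 3 libraries of log2(normalized count + 1) (horizontal axis, drawn to 1.6, with 113 genes beyond it), with the detected ligands as red and the detected receptors as blue lines. The 6 ligands lie between 0.53 and 0.75, to the right of most genes, and Egfr and Erbb2 lie near the peak at 0.22 and 0.21.

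Which ligands spanned more than 2-fold depended on the library left out. With replicate 1 left out, 3 of 8 detected genes (Ereg, Tgfa and Epgn) differed by more than 2-fold between the remaining libraries, against 12.8% of detected genes. Without replicate 2 there were 2 of 9 (Btc and Epgn), against 6.39%, and without replicate 3 there were 2 of 8 (Hbegf and Nrg1), against 15.4%. The median SD of the detected members was 0.63, 0.36 and 0.29 without replicates 1, 2 and 3, and that of all detected genes 0.26, 0.20 and 0.30. Without replicate 3 the members therefore had about the median spread of all genes.

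Of the 10 genes, 8 were lowest in replicate 2 and 8 were highest in replicate 3. Among the 8 detected genes these counts were 6 and 6, where replicate 2 was lowest for 37.3% and replicate 3 highest for 27.9% of all detected genes. Both held at once for Ereg, Tgfa, Epgn and Egfr, and for 15.9% of all detected genes. Scaled to equal totals, replicate 3 was highest for 6 of the 10 genes, since Egfr and Erbb2 no longer were. Among the 8 detected genes the count was then 4, against 20.5% of all detected genes under the same scaling. Ligands took 2 shapes. Hbegf and Nrg1 were highest in replicate 1, with centred log2 values of 0.54 and 0.48 there, while Ereg, Tgfa, Btc and Epgn were between 0.58 and 0.82 above their own means in replicate 3. Of the detected genes, Epgn alone had 1 library more than 2-fold from both others, replicate 3, against 11.3% of all detected genes. Epgn passed narrowly, as replicate 3 was 2.02-fold above replicate 1, and the count of 1 became 0 with equal totals or a pseudocount of 10 and 2 with TMM factors. Leukocyte markers moved in the same library, as the 7 markers, 2 of them detected, summed to 150, 111 and 715 normalized counts, mostly Lyz2. Laptm5 (1.74, 4.93 and 36.7), Adgre1 (0, 6.34 and 23.7), Tyrobp (0, 2.11 and 15.4) and Cd52 (0.868, 0.705 and 9.48) were highest there too, while Cd68 and Ptprc were not, and Ptprc was at most 1.74. Their part in the ligand levels was not tested.

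**Figure D4:**
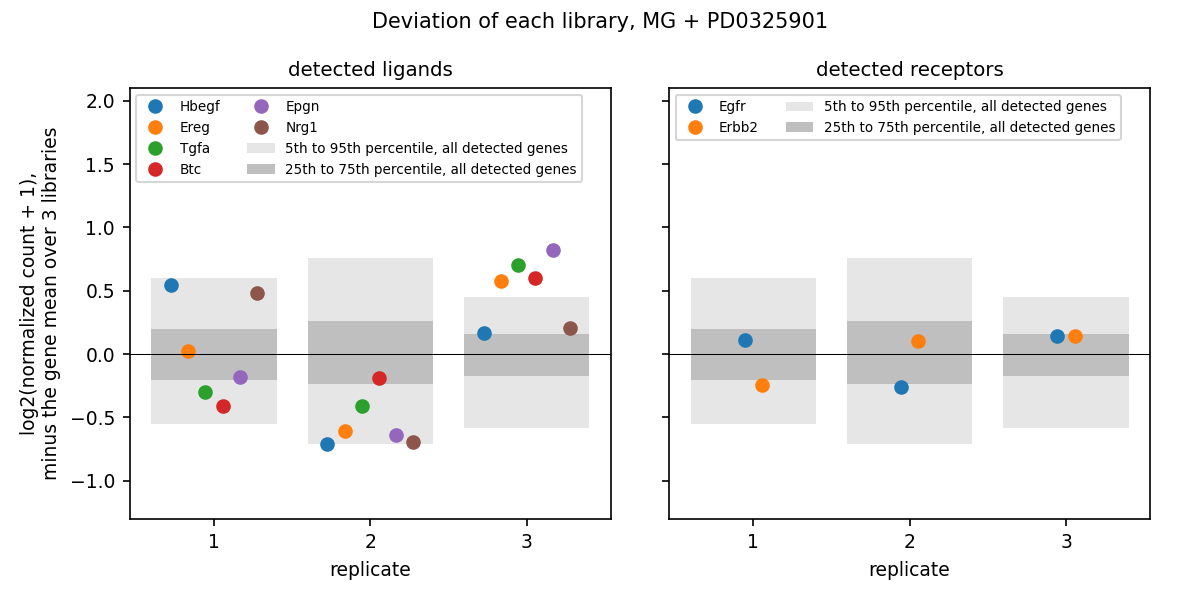
Log2(normalized count + 1) minus the mean of each gene over the 3 libraries (vertical axis) in replicates 1, 2 and 3, for the detected ligands (left) and receptors (right), with grey bars for the middle 50% and 90% of all detected genes. In replicate 3, Ereg, Tgfa, Btc and Epgn lie above the 90% bar, and in replicate 2 all 6 ligands lie below 0, while Egfr and Erbb2 stay within 0.26 of 0.

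Genes with the nearest pattern over the 3 libraries were looked up by Euclidean distance of centred log2 values, over genes averaging 100 normalized counts or more. For Ereg they included Mocos and Ece2, at distances of 0.0048 and 0.039, and 123 of 9989 genes lay within 0.25. For Egfr they were Mettl22, Lamtor1 and Nfe2l2, at 0.0060, 0.0061 and 0.0084, and 1832 genes lay within 0.25. Epgn, the most variable detected member, lay nearest to Spry4, a gene of a feedback inhibitor of receptor tyrosine kinase signalling, at 0.058, and then to Mir6240 and Steap4, at 0.072 and 0.10. Within 0.25 of Epgn there were 28 genes. With 3 libraries, many genes have a like pattern by this measure.

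The other genes of the family were at or near 0. Egf itself had 8.68, 9.16 and 4.74 normalized counts in replicates 1, 2 and 3, from 10, 13 and 4 reads, the same order of level as Erbb3. Nrg2 had 1 read in all, and Nrg3, Nrg4 and Erbb4, the gene of the fourth ErbB receptor, had none. A count of 0 leaves room for up to 3.56 normalized counts in the shallowest library.

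Genes that process the ligands and relay or end the receptor signal were present throughout. All 9 genes of ligand shedding and its control were detected, among them Adam17, the main sheddase of EGFR ligands, with 860, 1121 and 954 normalized counts. Adam9 had the highest mean, 5427 ± 759 (SD, n = 3), and Adam12 varied most, with 545, 1652 and 737. Of the 9, Adam12 was the only one with a range over 2-fold, and the median SD of their log2 values was 0.25. Over all detected genes, 21.6% had such a range and the median SD was 0.30. All 13 adaptor and effector genes were detected, with 2 ranges over 2-fold and a median SD of 0.22. Ptpn11, which encodes the phosphatase SHP2, was highest with a mean of 6267 ± 1293, and Eps8, an EGFR substrate gene, varied most, with 112, 703 and 225. All 12 genes of receptor downregulation were detected, with 2 ranges over 2-fold and a median SD of 0.29. Hgs, which sorts receptors to lysosomes, was highest with 2346 ± 255, and Cbl, the gene of a ubiquitin ligase for EGFR, varied most, with 30.4, 290 and 134 normalized counts.

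Of the 9, 13 and 12 genes in these 3 lists, 5 in all had a range over 2-fold, against 21.6% of all detected genes. These 5 went in different directions. Adam12, Eps8 and Cbl were highest in replicate 2, Sos2, an exchange factor gene for Ras, in replicate 1 (1839, 899 and 715 normalized counts), and Lrig3 in replicate 3 (296, 173 and 498). Replicate 2 was the highest library for 6 of the 9 shedding genes and 10 of the 13 adaptor genes, and for none of the 8 detected family members, against 40.6% of all detected genes. Of the 12 downregulation genes it was highest for 4 and lowest for 5.

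Reads near other genes limit a few of these values. The exons of Ereg, Tgfa and Nrg1 share 141, 118 and 482 bp with non-coding genes on the opposite strand, and Erbb2 shares 9 bp with Mien1. The libraries were stranded, but whether counting used the strand is not given in the sources used here. The gene in the Nrg1 exons, Gm26578, had at most 3.56 normalized counts, and the genes in the Ereg and Tgfa exons, Gm19610 and Gm43917, were not analysed here.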

How the data were processed

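RNA-seq was analysed from 3 libraries of MG + PD0325901, replicates 1, 2 and 3. Reads of stranded mRNA libraries were aligned to mm10 with TopHat2 2.0.13, with uniquely mapped reads kept, and counted per gene with HTSeq 0.5.3p3 (versions per the submitters' processing notes). The authors deposited a signal of normalized counts, in which reads on each gene are divided by 1 size factor per library. Reads were recovered from it, as 100% of values were within 0.01 reads of a whole number. The table holds 3 further columns of per-sample values, which match no sample and were not used. Gene annotation and strand setting are not given in the sources used here.

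The count per gene was described by mean and SD, log2 values with a pseudocount of 1 and exact 95% Poisson intervals, in Python 3.11.15 with scipy 1.17.1. Exonic lengths came from GENCODE M21 (GRCm38), matched by symbol for 95.4% of detected genes. edgeR 4.0.16 gave TMM factors. With 1 condition, no model was fitted. The call of 1 library apart was tested on simulated counts of genes averaging at least 100 normalized counts, with changes planted in replicate 2 alone. This does not cover the call of Epgn, which averaged 79.1 and stood apart in replicate 3. The other steps were not tested in this way. P-values compare genes over 3 libraries and measure the spread between these alone.

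Genes and lists were chosen with earlier results of these data known. Named were the 10 genes, 5 further family genes, the highest and the most variable gene of each pathway list, and the 3 nearest in pattern to the highest ligand, the highest receptor and the most variable detected member. Some genes under this rule and some markers are not reported here. Adam17, Sos2, Lrig3, marker genes and overlapping genes were named after their values were seen. Alternatives were equal totals, TMM, other minimums, pseudocounts and fold limits, the longest transcript and each replicate left out.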

Additional observations from a re-analysis of the deposited data

How the results depend on the processing

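No paired analysis was possible between groups because the samples form 1 group. Genes are paired by library, and in an alternative chosen after seeing the data 5 of the 9 neighbouring pairs kept 1 order in every library, each with a paired exact permutation p of 0.25, the smallest that 3 libraries allow. The count of detected genes with 1 library apart depended on nearly every choice: it was 1 as reported, 0 with equal totals and with a pseudocount of 10, 2 with TMM factors, 3 with no minimum and 6 at a 1.5-fold limit. The count with a range over 2-fold was 2 to 3 when any replicate was left out, where fewer libraries can only narrow a range, and between 4 and 8 under the other alternatives. The median SD then ranged from 0.29 to 0.63. A minimum of 100 normalized counts left 4 genes detected, Ereg, Hbegf, Egfr and Erbb2. With the longest transcript as length, 3 neighbouring pairs did not overlap and the mean share of Ereg among ligands was 57.0%, against 5 pairs and 68.2% as reported, which follows from the shorter length of Hbegf. Leaving out replicates, that share was between 65.5% and 71.9%. Depth limits Areg, Erbb3 and Tgfa, with at most 33 reads in any library.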
